A study of Fundulus heteroclitus with 20 samples.

Results

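The intact midbrain/diencephalon of the mummichog (Fundulus heteroclitus, a killifish) was described from 10 intact hemispheres, 1 from each of 10 fish, out of 20 libraries in the series. The members were the libraries labelled contralateral intact, and the values are the counts on 13679 genes after transfer RNA entries were left out. Adult fish, for which no strain is given, were anaesthetized in 2-phenoxyethanol, a needle was pushed through 1 tectal hemisphere into the tegmentum and hypothalamus beneath it, and tissue was taken 1 h later. The intact hemisphere is the other side of the same brain, so each fish had been anaesthetized and lesioned, and no library of an unlesioned fish was used here. The levels are therefore those of the unlesioned side of an injured brain. The other 10 libraries, the lesioned hemispheres, enter only as the second library of each fish, and were not tested against the intact ones.

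The piece of brain sampled holds several regions with known functions. The optic tectum on the dorsal midbrain receives the input of the retina, the tegmentum below it holds motor nuclei, and the hypothalamus of the diencephalon makes the neuropeptides that govern feeding, stress and the pituitary. In fish brains, radial glia that line the ventricles take over many tasks of mammalian astrocytes and act as neural stem cells. Oligodendrocytes wrap axons in myelin, microglia are the resident macrophages, and endothelial and mural cells form the vessels.

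Between 9213580 and 11070103 counts fell on these genes in an intact hemisphere (median 10110918), so that a gene at 1 CPM (counts per 1000000) had about 10 counts. The deposited counts cover annotated genes only, and these totals are far below the mapped reads per sample that the paper reports. Shares and CPM are therefore of the deposited counts, not of all reads of a library. Protein-coding genes held 98.6 to 98.7% of the counts, non-coding RNAs 1.00 to 1.09% and pseudogenes 0.323 to 0.368%. Of the genes, 58.5% carry a placeholder symbol (LOC and a number), and the protein named in the deposited description is given for them. By the labels all intact hemispheres were left ones, although the paper divides the sides equally between the groups, and the library kit is SMART-Seq in the labels and TruSeq in the paper. Neither was used in a test, and the side and the group cannot be told apart from the labels. In bulk tissue, fewer cells of a type and less RNA per cell cannot be told apart. No coding lengths were at hand, so levels were compared between fish and never between genes, except as shares of counts.

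Of the 13679 genes, 9793 (71.6%) had at least 10 counts in every intact hemisphere and 403 had none in any. The median gene had a mean of 17.4 CPM, 2316 genes had a mean of at least 100 CPM, and 3004 had a mean under 1 CPM. Counts were spread widely: between 662 and 708 genes were needed to reach 50% of a library's deposited counts. The 10 most counted genes together held 7.79 to 8.94% of the counts (median 8.48%).

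Neuronal, myelin, glial and housekeeping genes were among these 10. The most counted gene was LOC105932189, an uncharacterized protein-coding gene with 1.91% ± 0.122 of the counts (SD, n = 10 fish). LOC105920195, described as like the light neurofilament chain that fills large axons, held 0.976% ± 0.163. It is listed as si:dkey-33c12.3 in the RefSeq annotation of another assembly. LOC105933411, like myelin basic protein, held 0.954% ± 0.118. Next came jarid2, a partner of the Polycomb repressive complex, at 0.867% ± 0.0693, and actb, the cytoskeletal actin, at 0.801% ± 0.0693. The glycolytic enzyme aldoc held 0.684% ± 0.0407, and the constitutive chaperone LOC105921217 (heat shock cognate 70) held 0.606% ± 0.0349. LOC105916686, the glutamine synthetase with which glia recycle glutamate, and LOC105936999, the SNAP-25 of synaptic vesicle fusion, each held 0.504% (SD 0.074 and 0.0494).

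The remaining gene of the 10 varied far more than the other 9. LOC105929330, like ependymin-1, encodes a glycoprotein that fish secrete into the brain's extracellular and cerebrospinal fluid. It had 2432, 6579, 3549.7, 8799, 8901, 2868, 3403, 9389.5, 8599.7 and 8257 CPM in the intact hemispheres of fish 1 to 10. Fish 1, 3, 6 and 7 were low and the other 6 were high, with no fish between 3549.7 and 6579 CPM. Its biological coefficient of variation (BCV) was 0.438, against 0.0876 to 0.171 for the other 9. The BCV is edgeR's estimate of the spread between intact hemispheres beyond counting noise. For each gene it is drawn toward the value usual at that level, so a small BCV can exceed the gene's own spread. LOC105921217, for example, had a BCV of 0.0876 and a coefficient of variation of 5.91%. With 1 intact library per fish, the BCV does not separate the fish from the hemisphere or the library. The lesioned hemispheres did not follow the same split, with 8949 CPM in fish 1 and 5592 in fish 5.

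To ask which genes differ from fish to fish, the 2 hemispheres of a fish were used as repeats of 1 animal. In edgeR's quasi-likelihood test of the fish term, with the mean difference between hemispheres removed, 5525 of 10513 genes (52.6%) had an adjusted p of 0.05 or less. The share was 47.6% among genes at 1 to 10 CPM and 56.1% among those at 100 CPM and over. An animal and the handling of its tissue cannot be told apart here, since both hemispheres of a fish share both. Counts of list members called are read against the 52.6% of all genes tested. The lists hold 331 gene entries found for 246 of 382 marker names, and names with no gene, such as gfap and elavl3, are not analysed here. That a name has no deposited gene does not show that the tissue lacks it. Genes that share a description may be near-identical copies between which reads could be divided.

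**Figure D1:**
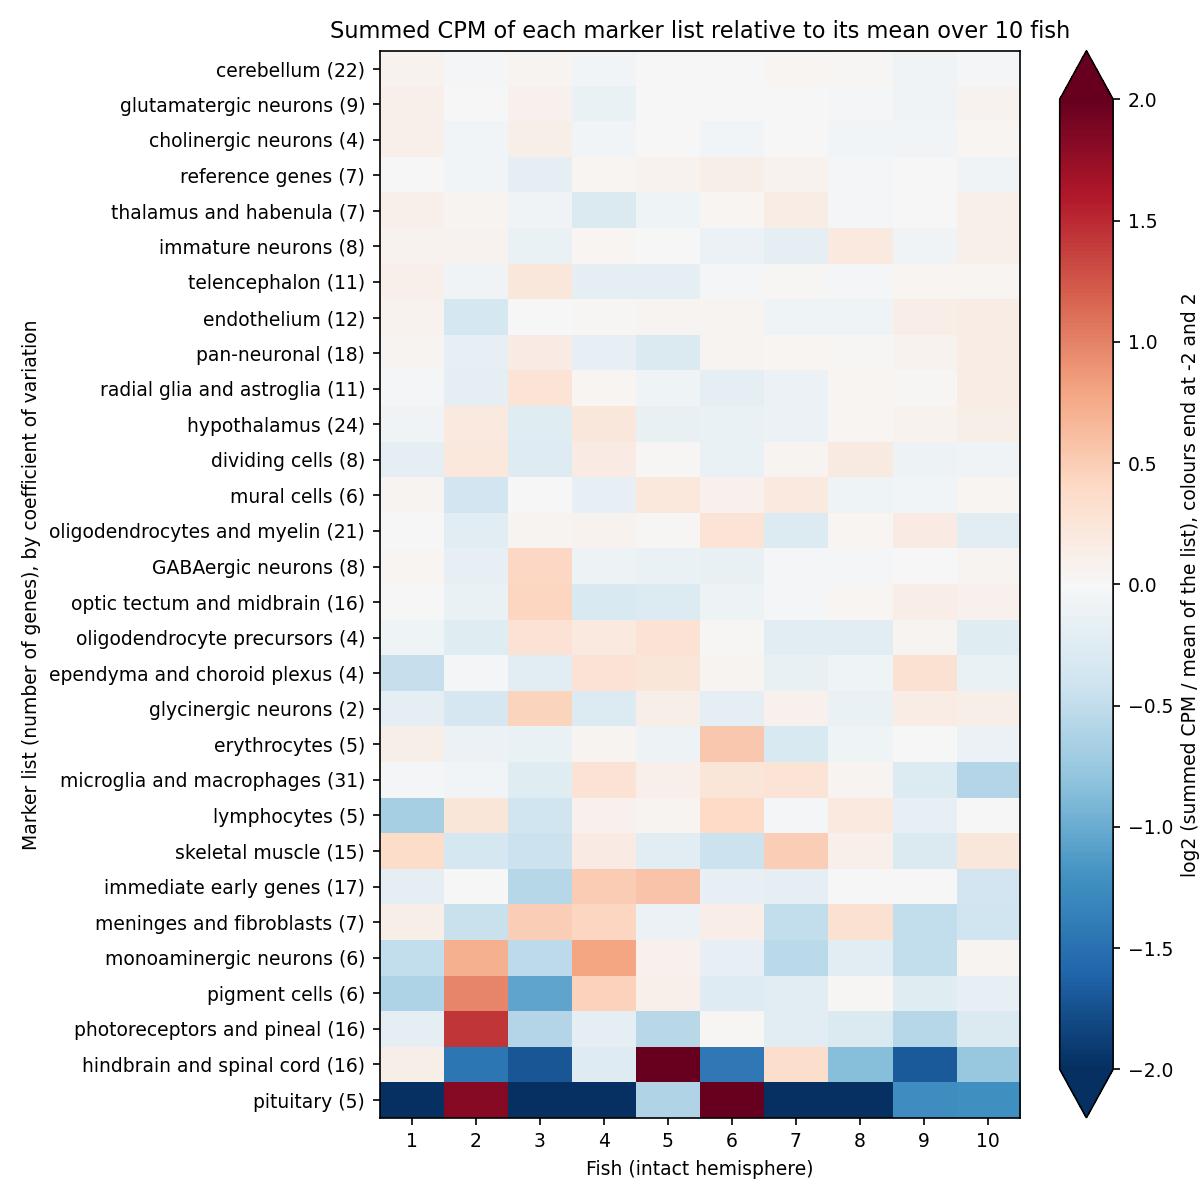
Summed CPM of each of 30 marker lists in the intact hemisphere of each fish, as log2 of the ratio to the list's mean over the 10 fish; rows run from the smallest to the largest coefficient of variation and the number of genes is in brackets. The cerebellar, glutamatergic, cholinergic and reference lists are near white in every fish, while the photoreceptor list stands out in fish 2, the hindbrain list in fish 5 and the pituitary list in fish 2 and 6. A sum can rest mostly on a single gene, as the cholinergic list does on ache.

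The pan-neuronal, glutamatergic, GABAergic and glycinergic lists had coefficients of variation of 4.80 to 17.1%, highest in the glycinergic list (89.0 to 152 CPM in sum). The summed level of the pan-neuronal list ranged from 18797 to 25984 CPM (coefficient of variation 10.0%, n = 10), lowest in fish 5 and highest in fish 3. The sum rests mostly on LOC105920195 and LOC105936999, with means of 9772 and 5040 CPM against 23069.5 for the list. Both were lowest in fish 5 and highest in fish 3, and nefm was also highest in fish 3. Other members peaked elsewhere, such as map2 in fish 4 and gap43 and sncb in fish 2. The glutamatergic list, led by the vesicular glutamate transporter slc17a6 and its copy LOC105916307, ranged from 2097 to 2447 CPM, a coefficient of 4.80%. Of its 8 tested members, 1 differed between fish, which was LOC105916307 (adjusted p = 0.0123, edgeR; 0.0673 without fish 4). The GABAergic list ranged from 4153 to 6198 CPM, and its highest value, in fish 3, lay well above the next. In that fish the GABA-making enzyme gad2 had 828 CPM against 586 to 711 in the other 9. On the lesioned side of fish 3 gad2 had 638 CPM, inside the 570 to 743 CPM of the lesioned hemispheres. It did not pass for the fish term (adjusted p = 0.278, edgeR). Of 8 GABAergic members tested, 2 differed between fish, and of 17 pan-neuronal members 9 did, a share close to that of all genes. The GABAergic count was 0 without fish 4 and 1 without fish 1, 3, 7 or 10, and the pan-neuronal count was 4 without fish 7.

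Monoaminergic genes ranged more widely. The list's sum ranged from 85.5 to 216 CPM (coefficient of variation 38.4%) and was highest in fish 4 and fish 2. Serotonin-synthesizing tph1 had 26.0, 91.8, 19.9, 85.7, 53.8, 40.9, 20.8, 32.0, 39.9 and 48.7 CPM in fish 1 to 10, high in fish 2 and 4 and low in fish 1, 3 and 7. The serotonin transporter slc6a4 was highest in fish 4, at 44.9 CPM against 12.5 to 24.7 in the others. Tyrosine hydroxylase (th), which makes the precursor of dopamine, kept to 15.9 to 30.2 CPM. The dopamine transporter slc6a3 ranged more widely, from 10.4 to 34.2 CPM and highest in fish 2. The vesicular monoamine transporter slc18a2 ranged from 6.27 to 27.2 CPM and was highest in fish 4. Only tph1 of the 5 members tested passed for the fish term (adjusted p = 0.0496, edgeR), and in 6 of 14 other fits it did not, at most 0.179 without fish 3. The cholinergic list spanned 840.3 to 954 CPM, and 3 of its 4 members differed between fish, 2 without fish 3. The sum rests mostly on ache, with a mean of 817 CPM against 877 for the list, which did not pass (adjusted p = 0.0854, and 0.0324 with DESeq2). Other members ranged more widely. LOC105918640, like chat, had 20.4 to 52.3 CPM (adjusted p = 0.00025), and LOC105931044, like slc5a7, had 0.983 to 6.46 CPM (adjusted p = 1.71e-05).

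Glial and myelin genes had members with steady differences between fish. Of 10 radial glial and astroglial genes tested, 7 differed, but 3 without fish 3. The gap junction gene gja1 ranged from 2284 to 3553 CPM (adjusted p = 0.000115), lowest in fish 5 in both hemispheres. The glutamine synthetase LOC105916686 had 7058 CPM in fish 3 and 4408 to 5393 in the others, and its call was lost without that fish (adjusted p = 0.143). Glutamate transporter slc1a2 ranged from 4007 to 5471 CPM and did not pass (adjusted p = 0.0646), although it did with DESeq2 (0.00384) and without fish 5 or 6 (0.0457 and 0.0231). Brain aromatase-like LOC105938561, the oestrogen-making enzyme of fish radial glia, spread from 13.0 to 154 CPM. Of 13 oligodendrocyte and myelin genes tested, 9 differed between fish, and at least 6 did whichever fish was left out. LOC105929404, like myelin proteolipid protein, had 1651 and 1648 CPM in the hemispheres of fish 7, the lowest in each group. In fish 6 it had 2915 and 2887, the highest in each (adjusted p = 0.000879). The claudin gene cldn11 of mammalian myelin had no count in any intact hemisphere, while cldn19 ranged from 505 to 742 CPM.

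In the immune and vascular lists, most members tested differed between fish. Of 18 microglial and macrophage genes tested, 16 differed between fish, 16 without fish 3 and at least 14 whichever fish was left out, against 52.6% of all genes. The antigen-presentation chaperone cd74 had 1131, 1174, 964, 1504, 1169, 1467, 1489, 1275, 871 and 779 CPM in fish 1 to 10. Fish 9 and 10 were lowest and fish 4, 6 and 7 highest, and fish 9 and 10 were also lowest in the lesioned hemispheres, with 747 and 765 CPM (adjusted p = 2.57e-05). The growth factor receptor LOC105918495, a csf1r on which microglia depend, ranged from 67.3 CPM in fish 10 to 128 in fish 1 (adjusted p = 6.37e-06). The actin-bundling leukocyte gene lcp1 ranged from 106 CPM in fish 10 to 197 in fish 6 (adjusted p = 0.000236). Summed, the list was lowest in fish 10 at 1260.0 CPM and highest in fish 4 at 2319. The sum rests mostly on cd74, with a mean of 1182 CPM against 1891 for the list, and members differed in their order. The complement genes c1qa, c1qb and LOC105938255 (c1qc-like) were highest in fish 9, at 46.4, 48.7 and 33.7 CPM. The mannose receptor-like LOC105920253 was also highest there, at 81.9 CPM, and 10 of the 31 members were highest in fish 5. The list holds 31 genes, of which 3 had no count in the intact hemispheres, and the other 10 that were not tested were macrophage mannose receptor-like copies.

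Of 10 endothelial genes tested, 9 differed between fish, and 7 to 10 did when 1 fish was left out. The VEGF receptor LOC105925783 (kdr-like) ranged from 86.8 CPM in fish 2 to 176 in fish 6, with 97.5 and 180.0 in their lesioned hemispheres (adjusted p = 4.8e-06). The angiopoietin co-receptor tie1 was lowest in fish 2, at 112 and 121 CPM in the 2 hemispheres, and highest in fish 10 at 193 and 193 (adjusted p = 0.000276). Endothelial kdr was highest in fish 9, at 239 CPM, and its call was lost without that fish (adjusted p = 0.00256 and 0.0659). The tight junction gene cldn5, part of the blood-brain barrier, spanned 141 to 177 CPM and did not pass (adjusted p = 0.0936), although it did with DESeq2 (0.0415) and without fish 5 (0.0118). Among 6 mural cell genes 4 differed, with the widest range in LOC105932873, a signalling regulator like rgs5 of pericytes. It had 20.9 CPM in fish 2 and 92.0 in fish 7, and 20.1 and 87.1 on their lesioned sides (adjusted p = 2.38e-07).

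Among genes that mark brain regions, most did not pass for the fish term. Of 14 optic tectum and midbrain genes tested 2 differed between fish, of 23 hypothalamic genes 6, of 20 cerebellar genes 5, of 7 thalamic and habenular genes 2, and of 6 telencephalic genes 0. For the tectal list the count was 1 without fish 7 and 4 with DESeq2, and for the thalamic list it was 1 without fish 1, 3, 5, 6, 8 or 10. The telencephalic 0 of edgeR's adjusted test was also 0 with DESeq2 and 1 without fish 2, and 0 of the 6 had an unadjusted p of 0.05 or less. The tectal transcription factor pou4f2, found in cells of the visual system, was highest in fish 3 at 245 CPM, against 123 to 185 in the others (adjusted p = 0.131, and 0.0226 with DESeq2). The homeobox gene meis2 had its highest level in fish 3 as well, at 397 CPM against 228 to 310.2. In the lesioned hemisphere of fish 3 they had 176 and 261 CPM, inside the range of the other lesioned hemispheres. In the hypothalamic list, the appetite-related peptide gene cartpt ranged from 90.0 to 146 CPM (adjusted p = 0.00552). Its like copies LOC105917704 and LOC105940209 ranged from 6.35 to 30.7 and from 3.92 to 31.6 CPM (adjusted p = 0.00727 and 0.00287). A further copy, LOC105925468, ranged from 1.18 to 3.69 CPM (adjusted p = 0.246). Thyrotropin-releasing hormone (trh) ranged from 39.6 to 65.2 CPM (adjusted p = 0.943), and the opioid gene pdyn from 2.22 to 40.8 CPM (adjusted p = 0.796). Neither of these passed, and a p above the threshold does not show that the fish were alike.

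**Figure D2:**
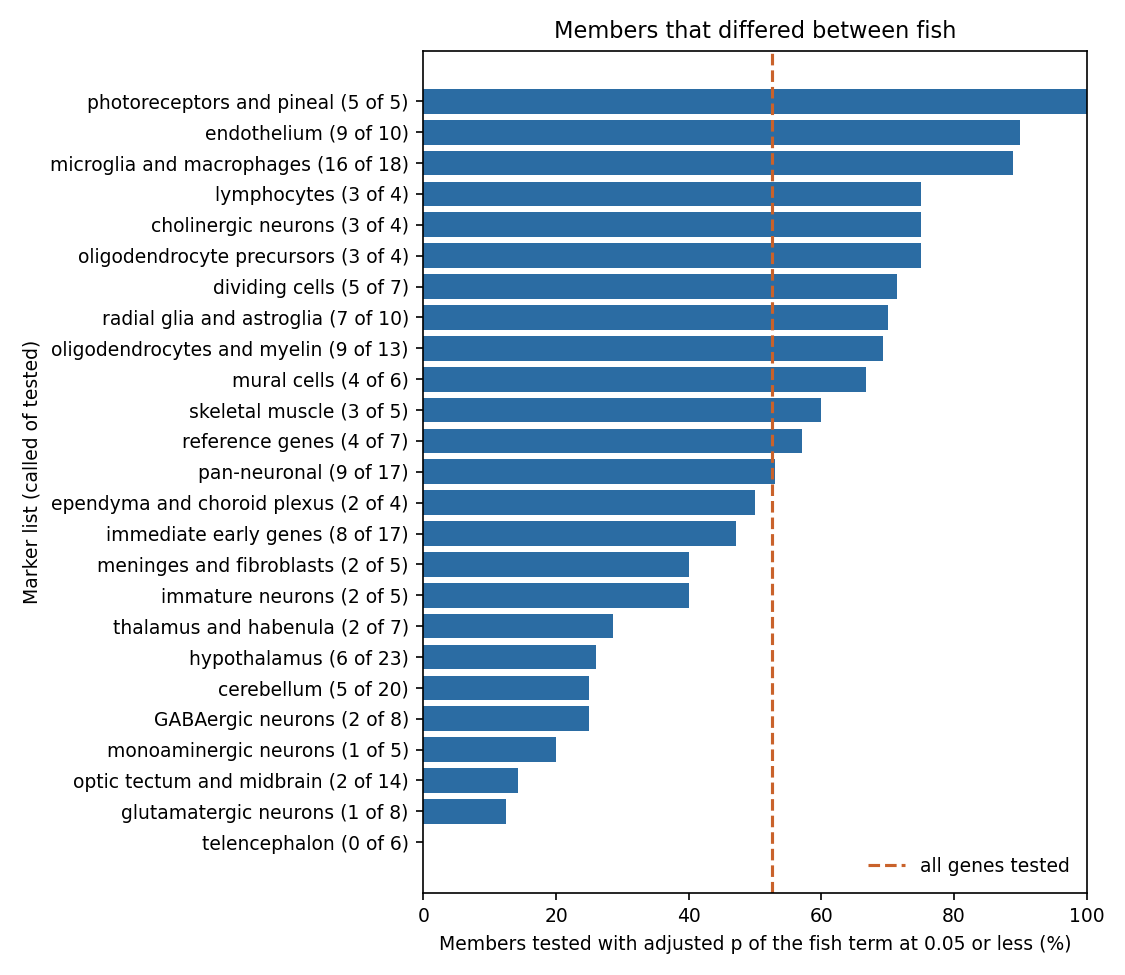
Share of tested members of each marker list with an adjusted p of the fish term at 0.05 or less, for lists with at least 4 members tested; the dashed line is the 52.6% of all genes tested, and the numbers in brackets are members called of members tested. Microglial (16 of 18) and endothelial (9 of 10) lists lie to the right of the line and the glutamatergic (1 of 8), tectal (2 of 14) and telencephalic (0 of 6) lists to the left.

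Regional markers were checked against the labelled tissue. In the intact hemispheres otx2 had 86.0 to 138 CPM, and the midbrain and diencephalon homeobox gene LOC105919240 had 23.2 to 39.4 CPM. Of 24 hypothalamic genes, 17 had at least 10 counts in every intact hemisphere. Others came near 0 in at least 1, such as nkx2-1 at 0.605 to 13.7 CPM and LOC105934384, like nkx2-4, at 0.302 to 3.85 CPM. The hypothalamic list's sum ranged from 433 CPM in fish 3 to 602 CPM in fish 4. Hindbrain and spinal cord Hox genes were close to 0, with a summed level of 1.91 to 26.8 CPM over 16 genes and a median of 3.56 CPM. The highest was in fish 5, where hoxd3 had 6.43 CPM and 59 counts, with no count in 6 of the other fish and 1 to 3 counts in the remaining 3. Its lesioned hemisphere had 0.0916 CPM. The cerebellar list kept to 8011 to 8897 CPM in sum, which rests mostly on aldoc, since several members varied widely, as given below.

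Genes known from the retina, pineal, pituitary, blood and muscle were read in each fish. Photoreceptor and pineal genes summed to 221 CPM in fish 2 and to 54.5 CPM in the lowest, fish 3. In fish 2, rhodopsin (rho) had 43.4 CPM against 1.74 to 7.14 in the other intact hemispheres, and rod transducin (gnat1) had 41.4 CPM against 0 to 3.99. The lesioned hemisphere of fish 2 had 2.06 and 0.188 CPM of them. The gene annotated as the melatonin-making enzyme asmt was also highest in fish 2, at 27.2 CPM against a median of 2.09 CPM (adjusted p = 0.0171). LOC105935486, described as like asmt, ranged from 41.9 to 58.5 CPM and was highest in fish 6 (adjusted p = 0.000315). Of this list 5 of 5 tested members differed between fish, and 2 did without fish 2 and 3 without fish 7 or 8. Prolactin (prl), a pituitary hormone, had 26.3 CPM in fish 2 and 22.0 in fish 6, and at most 2.70 in the other 8. Growth hormone (LOC105932808) was highest in fish 6. Haemoglobin genes were near 0, at 2.16 to 5.59 CPM for the highest of 3, LOC105928866. Muscle genes were carried by myoglobin (mb, 1071 to 2106 CPM) and parvalbumin (pvalb, 49.5 to 454 CPM), both also known from nervous tissue. The muscle creatine kinase ckm reached 3.43 CPM at most. Myoglobin, the oxygen-binding protein, differed between fish (adjusted p = 3.44e-05), with 1071 and 1228 CPM in fish 2 and 2106 and 2158 in fish 7. The part of these tissues in other results was not tested.

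Immediate early genes, which neurons switch on within minutes of activity or injury, were measurable in every intact hemisphere. Their sum ranged from 1428 CPM in fish 3 to 3150.0 in fish 5 (coefficient of variation 26.1%, n = 10). The c-Fos-like gene LOC105929553 had 179.9, 447, 262, 480.4, 786, 343, 334, 317, 494 and 249.7 CPM in fish 1 to 10, highest in fish 5 and lowest in fish 1. It did not pass for the fish term (adjusted p = 0.0825, edgeR), although it did without fish 5 (0.0354). The c-Fos-like LOC105917182 ranged from 97.0 to 143 CPM, highest in fish 10 (adjusted p = 0.703). LOC105929477, also c-Fos-like, ranged from 52.1 to 93.0 CPM, highest in fish 8 (adjusted p = 0.000325). The transcription factor egr1 ranged from 273 CPM in fish 3 to 681 in fish 4, and npas4 from 128 in fish 3 to 390.1 in fish 4. LOC105919964, like egr4, had 376 CPM in fish 4 and 72.5 to 181 in the others. Of 17 members 8 differed between fish, close to the share of all genes, and 5 did without fish 4. The calls of egr1 and npas4 were lost without fish 4 (adjusted p = 0.0912 and 0.314). Anaesthesia, handling and the lesion on the other side were shared by all 10 fish and cannot be told apart here.

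Genes often used as references differed between fish about as often as all genes, in 4 of 7 against the 52.6%. The elongation factor LOC105917634 (like eef1a1) had 1205, 964, 1469, 886, 1086, 989.7, 1355, 1119, 1165 and 918 CPM in fish 1 to 10, lowest in fish 4 and highest in fish 3. The lesioned hemispheres of those fish had 921 and 1309.5 CPM, the second lowest and the second highest of their group, and the gene differed between fish (adjusted p = 9.44e-06). Ribosomal rpl13a spanned 1014 to 1265 CPM (adjusted p = 0.497) and rps18 589 to 743 CPM (adjusted p = 0.612). Neither passed, nor did actb (adjusted p = 0.105, and 0.0301 with DESeq2).

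**Figure D3:**
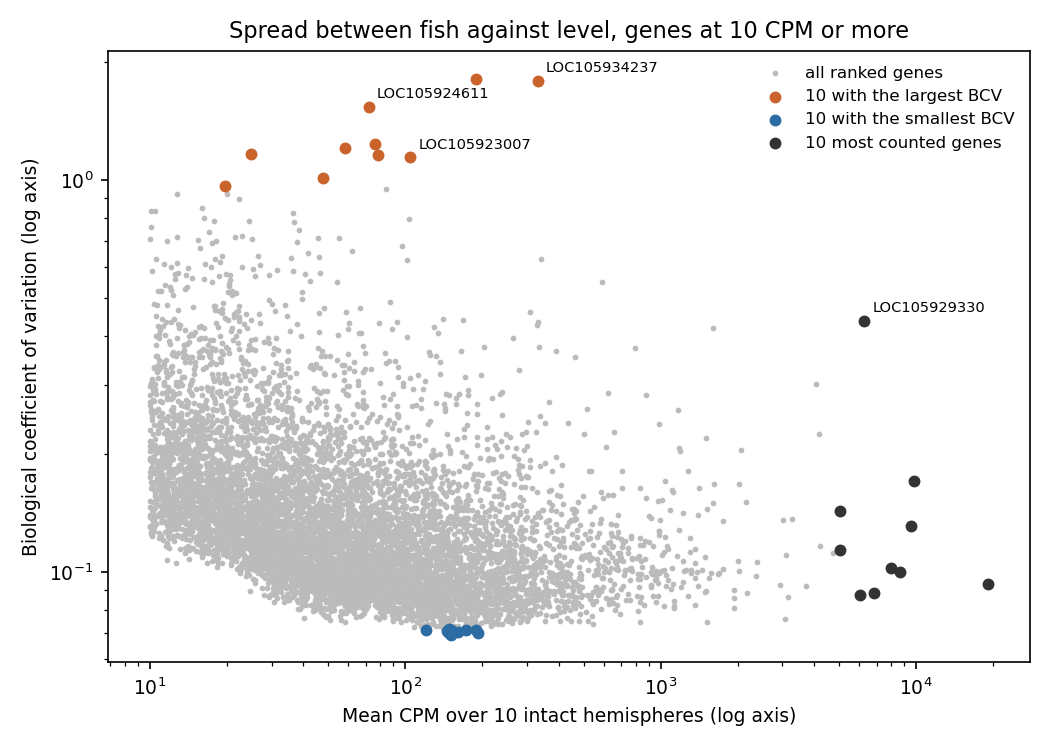
Biological coefficient of variation between the 10 intact hemispheres against mean CPM, both on log axes, for the 7957 genes at a mean of 10 CPM or more. The 10 genes with the largest coefficients have mean levels from 19.7 to 330.5 CPM, the 10 with the smallest have means from 121 to 194 CPM, and 9 of the 10 most counted genes lie below 0.2.

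Most genes varied little between the 10 intact hemispheres. Over 9764 genes that passed the filter in the intact hemispheres, the median SD of log2 CPM was 0.184, with quartiles of 0.121 and 0.299. The common BCV was 0.189. Among the 7957 genes at 10 CPM or more, the median gene's BCV was 0.124, 2051 genes were below 0.1, 97 (1.22%) were above 0.5 and 9 were above 1. The 10 genes with the smallest coefficients had several known roles. The BMP receptor bmpr2 had 147 to 158 CPM (BCV 0.0694), and the autophagy genes wipi1 and wipi2 had 188 to 203 and 142 to 153 CPM. The heparan sulphate polymerase ext2, the Golgi protein golga3, the sterol-binding LOC105935265, the spliceosome gene cdc5l, the splicing regulator ptbp2, the endosomal sorting gene tsg101 and the RNA-binding LOC105924399 completed the 10. Their coefficients ended at 0.0716, and the highest intact hemisphere was 1.07 to 1.10 times the lowest. These genes were ranked on the values shown, so their steadiness is a description. Their coefficients depend in part on the value at their level toward which edgeR draws each gene.

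The genes with the largest coefficients were of several kinds. In the first kind, both hemispheres of a fish had the same level. LOC105923007, like the zinc finger protein ZNF239, had 784 CPM in the intact and 787 in the lesioned hemisphere of fish 8, and 20.6 to 46.1 in the intact hemispheres of the other 9. It had the smallest p of the fish term (F = 2398, adjusted p = 5.92e-16, edgeR), and still differed between the other 9 fish (adjusted p = 2.09e-06 without fish 8). The gut protease gene tmprss15, known as enteropeptidase, had 209, 169, 2.72, 108, 98.9, 95.9, 92.4, 4.35, 2.49 and 3.77 CPM in fish 1 to 10. The level was 92.4 CPM or more in 6 fish and 4.35 CPM or less in the other 4, with nothing between. The lesioned hemispheres fell into the same 6 and 4 fish (adjusted p = 4.58e-12).

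Other genes had such steps between fish. LOC105924611, like the brain fatty acid-binding protein of radial glia, had 93.8, 325 and 274 CPM in fish 5, 9 and 10 and 1.47 to 11.1 in the other 7. Its lesioned hemispheres had 75.6, 256 and 248 CPM in the same 3 fish and at most 4.27 elsewhere (adjusted p = 7.43e-11). LOC105920338, the tyrosine kinase Yes, had 177 CPM in fish 7 in each hemisphere and 40.2 to 52.9 in the other intact hemispheres (adjusted p = 6.18e-11). LOC105915671, described as like the alpha-1 chain of collagen III and listed as col4a3 in the RefSeq annotation of another assembly, spread from 1.30 CPM in fish 2 to 209 in fish 3. Its lesioned hemispheres had 0.469 CPM in fish 2 and 206 in fish 3 (adjusted p = 4.92e-11). The uncharacterized LOC105925150 was high in fish 1 and 8, at 121 and 78.4 CPM, and at 2.03 to 20.5 in the other 8 (adjusted p = 8.46e-10).

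**Figure D4:**
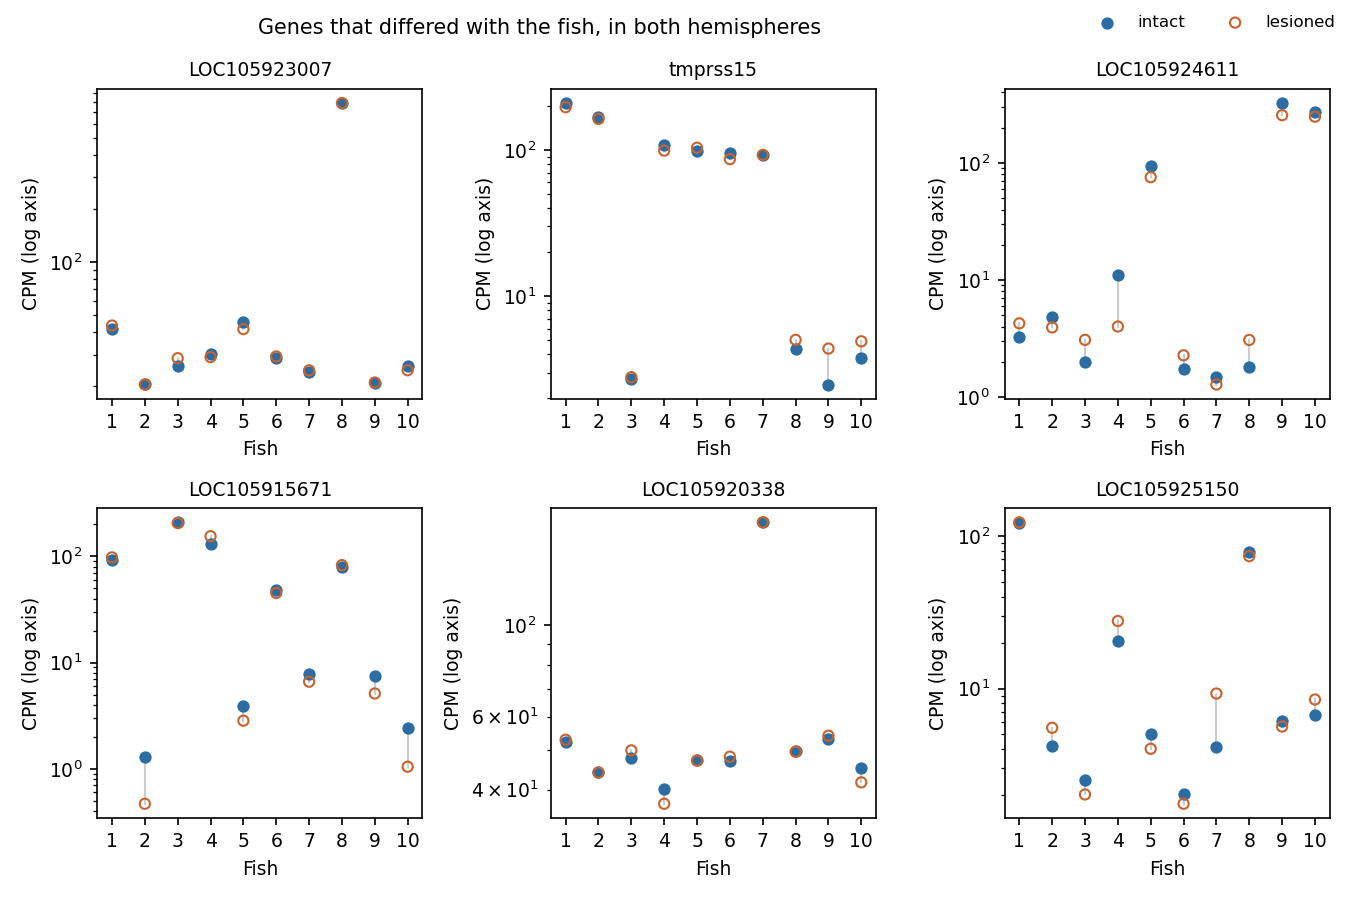
CPM (log axes) in the intact (filled) and lesioned (open) hemisphere of each fish for 6 genes with both hemispheres of a fish at like levels; a grey line joins the 2 hemispheres. LOC105923007 is high in fish 8 and LOC105920338 in fish 7, and tmprss15 is low in fish 3, 8, 9 and 10, in each case in both hemispheres.

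In the second kind, a gene was high in 1 hemisphere of a fish and low in the other. SCO-spondin (sspo), the protein that the subcommissural organ at the dorsal midline secretes to form Reissner's fibre, had 33.8, 29.6, 1.01, 7.02, 35.2, 36.6, 39.4, 31.9, 8.95 and 1.16 CPM in the intact hemispheres of fish 1 to 10. The lesioned hemispheres had 3.88, 0.844, 49.0, 24.8, 1.47, 1.04, 1.97, 2.36, 10.97 and 36.9 CPM. In fish 1, 2, 5, 6, 7 and 8 the intact side was high and the lesioned side low, in fish 3, 4 and 10 the reverse held, and in fish 9 the sides were near each other. Summed over both sides, a fish had 19.9 to 50.0 CPM. The fish term did not pass (adjusted p = 0.996).

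Several genes that led the principal components of the intact hemispheres had this pattern. The first component held 21.4% of the variance and set fish 3 apart (score 32.8 against -19.1 to 6.90 in the others), and the second held 14.7%. At the end of the first opposite to fish 3 were fat2, a giant cadherin of cerebellar granule cells in mammals, LOC105933676 (glutamate receptor U1-like), LOC105919173 (cerebellin-1-like), the calcium channel subunit cacna2d4 and LOC105916018 (npas4-like). These genes were picked by their loadings. The choice favours low values in intact fish 3 and high ones in intact fish 5 (score -19.1). All 5 were highest in the intact hemisphere of fish 5. There they had 235, 342, 143, 65.6 and 133 CPM in that order. In fish 3 they had 2.12, 2.02, 2.42, 1.41 and 2.42 CPM on the intact side. On its lesioned side, which took no part in the components, they had 237, 138, 119, 66.2 and 95.7 CPM. Fish 5 was the other way round, with 50.7, 1.47, 3.39, 6.60 and 14.9 CPM on the lesioned side. None of the 5 passed for the fish term (adjusted p = 0.144 for LOC105933676 to 0.963 for fat2). At the positive end of the second component, the muscle-type genes LOC105935457 (calsequestrin-2-like) and LOC105918106 (M-protein-like) were also highest in the intact side of fish 5, at 84.3 and 62.3 CPM. Of the 22 cerebellar genes, 8 were highest in the intact side of fish 5, and the other 14 elsewhere, such as pcp4 in fish 10 and cbln1 in fish 4. Among the 8, named after their values were seen, zic1 ranged from 67.4 to 330.0 CPM and LOC105918002, like the granule cell GABA receptor subunit gabra6, from 8.46 to 41.6 CPM, while cbln2 was lowest in fish 5.

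**Figure D5:**
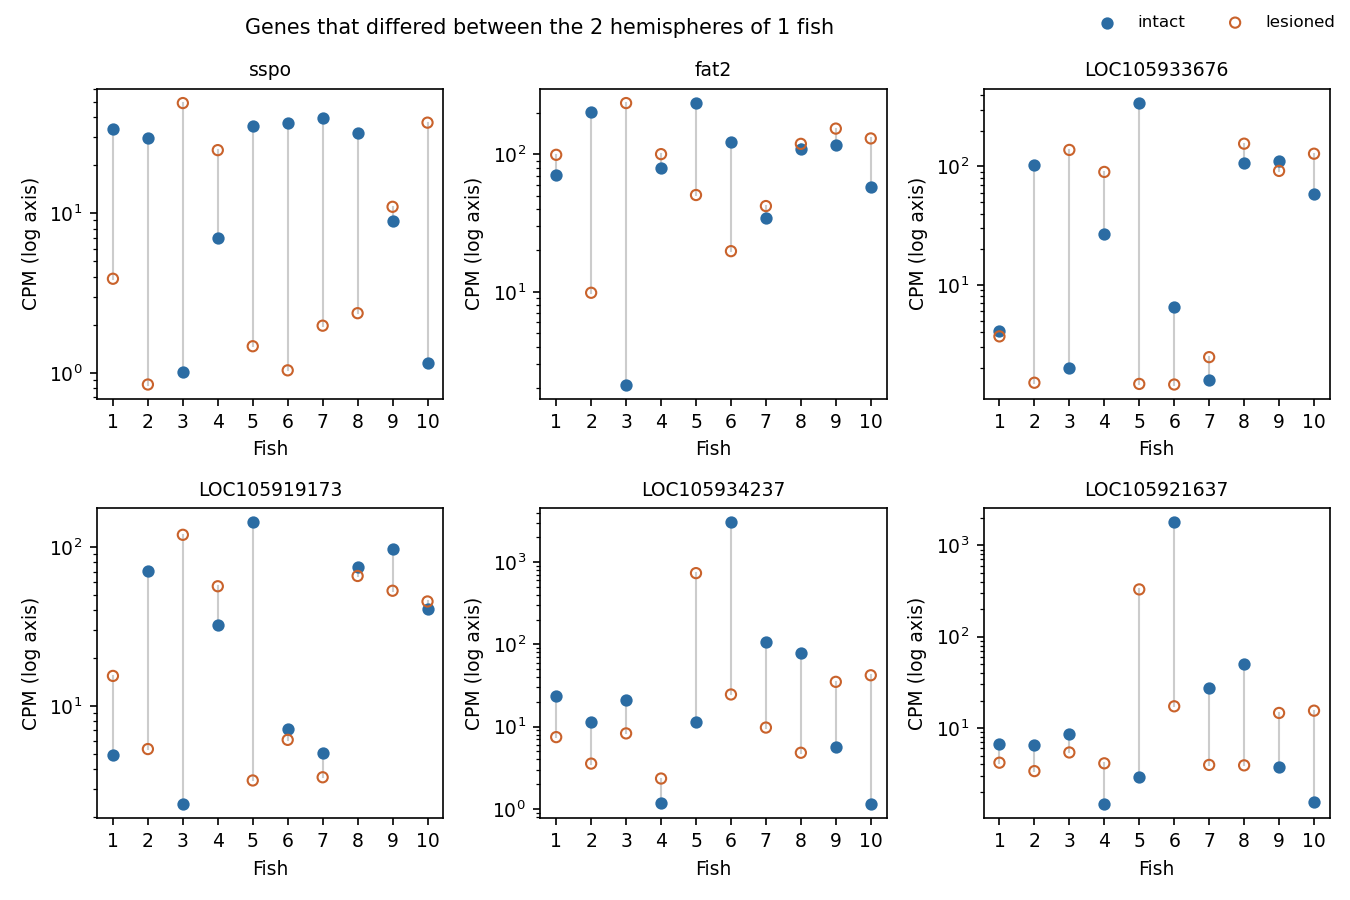
CPM (log axes) in the intact (filled) and lesioned (open) hemisphere of each fish for 6 genes that were high in 1 hemisphere and low in the other in some fish; a grey line joins the 2 hemispheres. The 2 sides of fish 3 and of fish 5 lie far apart in opposite directions for fat2, LOC105933676 and LOC105919173, and the keratin-type genes in the last 2 panels are highest in the intact side of fish 6 and the lesioned side of fish 5.

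Some genes named for their spread were high in 1 or 2 intact hemispheres. LOC105934237, like the intermediate filament protein ON3 of the goldfish optic nerve, had 3043 CPM in the intact hemisphere of fish 6 and 1.16 to 106 in the other 9. LOC105921637, like type I keratin 13, had 1786 CPM there and 1.48 to 50.7 elsewhere. The lesioned hemisphere of fish 6 had 24.6 and 17.3 CPM, whereas that of fish 5 had 734 and 329. The epithelial adhesion gene epcam was high in fish 6 and 7, at 39.3 and 53.1 CPM, and at most 6.32 CPM in the other intact hemispheres. The actin LOC105921430 was high in the same 2 fish, at 178 and 53.2 CPM. Both keratin-type genes passed for the fish term (adjusted p = 0.0162 and 0.00913), and neither did without fish 6 (0.0762 and 0.0668).

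Some genes were at or near 0 in at least 1 fish and well expressed in another. By the rule of at most 3 counts in the lowest and at least 10 CPM in the highest intact hemisphere, there were 79. Of these, 61 reached 10 CPM in a single fish, most often fish 6 (14 genes) or fish 7 (13 genes). In the lesioned hemisphere of the fish that was highest, 33 genes also had at least 10 CPM and 33 had under 1 CPM. The same fish was highest in both groups for 36 of the 79, against 33.5% of all genes with counts in both. LOC105931047, like collagen alpha-2(V), had 227 CPM in fish 9 and 205 on its lesioned side, and 0.1 to 7.04 in the other intact hemispheres. LOC105920404, like the methyltransferase METTL21C, had 20.8, 20.9, 28.7 and 27.7 CPM in fish 3, 4, 6 and 7 and at most 0.327 in the other 6. The cartilage-type matrix gene chadl had 0.327, 0.386, 0.197, 0.997 and 0.676 CPM in fish 5, 6, 7, 8 and 10 and 14.0 to 37.0 in the other 5 (adjusted p = 2.21e-09). The fusion-related gene dcst2 had 34.3 CPM in fish 3 and at most 2.75 elsewhere (adjusted p = 2.95e-10), and the uncharacterized LOC105924126 had 96.8 CPM in fish 5 and at most 14.5 elsewhere (adjusted p = 4.58e-08). In each of these 5 genes the lesioned hemispheres were high in the same fish.

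In others the lesioned side of the same fish was low. The hunger peptide gene LOC105921087, like agouti-related protein of the hypothalamus, had 41.4 CPM in fish 4 and 0 to 7.30 in the others, with 0.0978 CPM on the lesioned side of fish 4. The retinoid carrier LOC105930873, like rbp3 of the retina and pineal, had 31.4 and 0.281 CPM in the hemispheres of fish 2. The ammonium transporter LOC105918418 had 28.8 and 0.888 CPM in those of fish 7. The tectorin gene tectb, a matrix protein of the inner ear, had 41.4 and 5.50 CPM in those of fish 5, and at most 8.58 CPM in the other intact hemispheres.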

How the data were processed

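RNA-seq libraries came from both hemispheres, 1 lesioned and 1 intact, of 10 mummichog brains at the level of midbrain and diencephalon. Per the paper and the submitters' processing notes, the authors checked reads with FastQC 0.11.5, trimmed them with cutadapt 1.11, aligned them with STAR to the species' genome and obtained counts by gene with HTSeq, whose strand option is not given in the sources used here. The deposited counts are whole numbers without normalization. The authors' DESeq2 columns (means, fold changes, p-values) were not used, and 2585 transfer RNA entries of 16264 were left out.

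Counts were scaled by TMM to CPM in edgeR 4.0.16 (R 4.3.3). The spread between the 10 intact hemispheres was described by the SD of log2 CPM (prior count 2) and the BCV of an intercept-only fit. Both were computed for genes passing filterByExpr (minimum count 10, minimum total count 15). The BCV of a single gene is edgeR's tagwise value, which is moderated across genes. The fish term was tested with edgeR's quasi-likelihood F test on 20 libraries with hemisphere as a term, with Benjamini-Hochberg adjustment over 10513 genes. P-values given as adjusted come from this fit or, where a fish is left out, from its refit. The test was also run on simulated counts with known changes, where the share of false calls lay above the cutoff of 0.05. Those counts had the same spread for all genes, so the run does not give the share of false calls in the real data. DESeq2 1.42.0 (likelihood ratio test), other scalings, no filter, and each fish left out were alternatives.

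Genes named were the 10 most counted, up to 4 leading members of each of 30 marker lists and those at 0, the 10 largest and 10 smallest BCV at a mean of 10 CPM or more, 12 genes at or near 0 in some fish, the 5 smallest p of the fish term, the 5 leading genes at each end of 2 components, and 5 immediate early genes. Some items these rules gave are not reported here. Other list members are named where a result turned on them and were chosen after their values were seen. The members and lists were chosen with earlier results of these data known. Current symbols came from RefSeq's MU-UCD_Fhet annotation, which holds 85.3% of the gene IDs; the authors used another assembly, so no coordinates are given.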

Additional observations from a re-analysis of the deposited data

Results flagged for a closer look

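Each of 195 sets of 10 intact hemispheres (total counts, 2 components, 30 lists and 162 named genes on the log2 scale) was searched for a highest or lowest value that stood apart, by the gap to the next value as a fraction of the whole range, against Dixon's 95% critical value for 10 values. Chance flags about 1 in 20 such sets, and 28 were found. Many of the genes were named for their large spread, and genes of a list are not independent of its sum.

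Fish 3 stood apart in 11 of them. It was highest on the first component (0.499) and in the GABAergic list (0.636), and in the acetylcholine transporter LOC105918934 (0.611), the glutamine synthetase LOC105916686 (0.572), dcst2 (0.579) and the uncharacterized LOC105933058 (0.588). It was lowest in actb (0.501), the matrix gene dcn (0.484), pvalb (0.579), the thalamic prox1 (0.507) and fat2 (0.585).

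Fish 2 was lowest in the endothelial list (0.526) and highest in the photoreceptor list (0.695), rho (0.572) and LOC105930873 (0.551). Fish 6 was highest in the erythrocyte list (0.493), the T-cell gene LOC105933222 (0.539), somatolactin-like LOC105929080 (0.602) and the keratin LOC105921637 (0.51). Fish 5 was highest in the Hox genes LOC105919933 (0.475) and hoxd3 (0.738) and lowest in cbln2 (0.481). Fish 7 was highest in LOC105918418 (0.692) and LOC105920338 (0.816), and fish 8 in the replication gene mcm7 (0.666) and LOC105923007 (0.78). Fish 4 was highest in slc6a4 (0.47) and fish 9 in LOC105931047 (0.519).

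The transfer RNA entries, which no comparison used, held 18 to 42 counts per intact hemisphere with each of 45 IDs counted once.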

How the results depend on the processing

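With at least 1 count or at least 1 CPM required in every intact hemisphere, 11277 and 9743 genes were detected, against 9793 at 10 counts. The 10 most counted genes held 8.48% of counts with transfer RNA entries kept and 8.32% without fish 3. The median SD of log2 CPM was 0.245 with no filter on low counts, which adds low genes, against 0.184, and 0.175 (without fish 3) to 0.186 with 1 fish left out. The common BCV was 0.182 to 0.193 with 1 fish left out. The fish term called 4960 (without fish 7) to 5468 genes with 1 fish left out, 5508 with DESeq2 size factors, 5525 with total counts, 4707 with DESeq2's test and 5819 with no filter, against 5525. The number of genes at or near 0 in some fish depended on its cutoffs: it was 79 as reported, 148 with at most 10 counts in the lowest hemisphere and 188 with at least 5 CPM in the highest. The median over 30 lists of the SD of the log2 summed CPM was 0.195, 0.188 with total counts and 0.277 as the mean of log2 CPM over members. For single lists, total count scaling moved none of the 30 SDs by more than its jackknife error and the mean over members moved 16.

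Of 80 named genes called on the fish term, 34 lost the call in at least 1 of 14 other fits, and 24 of those not called gained it in at least 1. Counted per list with 1 fish left out or with DESeq2, alternatives added after the data were seen, 34 of 330 counts differed by more than 1.5 times, in 14 lists. No paired analysis was possible for the fish term because the fish number that would form the block is itself the term tested; the 2 hemispheres were, by choice, not compared. The order of paired markers within a fish, per coding length, and its 2 alternatives were not run, since no coding lengths were at hand. Near 1 CPM a gene has about 10 counts, so differences of genes at that level are not detectable when small.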

Other observations

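The sum of 8 dividing cell genes ranged from 67.7 to 93.1 CPM, with the replication helicase gene mcm7 at 43.7 to 58.6 CPM and topoisomerase top2a at 5.53 to 14.3 CPM. The migrating-neuron gene dcx spanned 83.9 to 108 CPM and differed between fish (adjusted p = 0.00168, edgeR). Lymphocyte genes summed to 10.6 to 22.1 CPM over 5 genes, among them the T-cell kinase lck at 4.52 to 11.6 CPM and the recombinase rag1 at 2.49 to 7.52 CPM, both of which differed between fish (adjusted p = 0.00198 and 0.00242). Pigment cell genes summed to 7.36 to 30.2 CPM, highest in fish 2, and ependymal cilia genes to 61.9 to 106 CPM, highest in fish 9.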
